A study of Mus musculus with 8 samples.

Results

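Genes of sterol and fatty acid synthesis under the control of sterol regulatory element binding proteins (SREBPs) were examined in small intestine of mice lacking IκBα in the intestinal epithelium. The set was chosen by name: 31 genes comprising 19 enzymes of cholesterol synthesis, the branch enzyme gene Ggps1, 5 regulators of SREBP activity, the sterol carrier gene Stard4 and 5 enzymes of fatty acid synthesis. Of these, 27 were measured, each by 1 probe set, among 22206 probe sets in all. Acat2, Tm7sf2, Srebf1 and Scd2 were not analysed here. The 27 comprised 17 sterol enzymes, Ggps1, 4 regulators, Stard4 and 4 fatty acid enzymes.

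The knockout (KO) mice carried Villin-Cre and floxed IκBα (gene Nfkbia), an inhibitor of the transcription factor NF-κB, and a wild-type (WT) littermate served as the comparison for each. The sources used here do not say whether WT littermates carried floxed alleles or Cre. There were 4 KO and 4 WT mice, all untreated, in 4 sibling pairs. Cre under the villin promoter acts in the epithelium, whereas RNA came from the whole frozen tissue, called duodenum in the series design and small intestine in the sample labels. Pair 1 was a male KO and a male WT mouse of 8 weeks, and pair 2 a female KO and a female WT mouse of 11 weeks. Pair 3 was a male KO and a female WT mouse of 8 weeks, and pair 4 a female KO and a male WT mouse of 9 weeks. RNA integrity numbers in pairs 1 to 4 were 8.5, 8.3, 8.3 and 7.0 in KO mice and 7.6, 8.7, 7.4 and 7.7 in WT mice.

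Cells make cholesterol from acetyl-CoA through mevalonate, isoprenoid diphosphates, squalene and lanosterol. When sterols in the endoplasmic reticulum are low, the escort protein SCAP carries the SREBP precursors to the Golgi, where proteases release the active factors. When sterols are plentiful, INSIG proteins hold SCAP and the precursors back. SREBP2 acts mainly on genes of sterol synthesis and uptake, SREBP1c mainly on genes of fatty acid synthesis, and both act together with the factors NF-Y and Sp1. In the small intestine the epithelium both absorbs sterols and makes them.

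Each array gave log2 expression values per probe set, with array medians between 6.77 and 6.81. In the deposited values the means of the 4 pairs were nearly equal for most probe sets (within 0.05 in 70.0% of them), so the values of littermates mirror each other and results were read as differences within pairs. Nfkbia had log2 levels of 6.65 to 7.72 in KO mice and 9.01 to 9.91 in WT mice, and fell by 2.65 ± 0.918 (SD of the 4 within-pair differences, limma adjusted p = 0.0130). Of 12 epithelial marker genes all were measured, and their mean level was 11.59 to 11.66 in KO mice and 11.57 to 11.64 in WT mice. Single markers moved in both directions under this mean. All KO values lay below all WT values for 5 of the 12 and above them for 4, against 17.2% and 15.9% of all probe sets. The duodenal factor Pdx1, chosen after its values were seen, had levels of 7.64 to 8.96 in KO mice and 6.85 to 7.71 in WT mice. The median of 6 duodenal markers differed by -0.01, 2.39, 0.98 and 1.55 (KO minus WT) in pairs 1 to 4, so the pairs were not alike in markers of intestinal position, and the part of this in the results below was not tested. The 3 Y-linked genes examined, Kdm5d, Eif2s3y and Uty, differed by -0.30 to 0 within pairs, also in pairs 3 and 4, where the labels give littermates of unlike sex. The values thus do not show the labelled sexes.

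In KO small intestine, against WT, 10 of the 17 sterol enzymes and 2 of the 4 fatty acid enzymes rose, and none of these enzymes fell. By limma with the sibling pair as a block, at an adjusted p under 0.05 over all probe sets, 13 of the 27 genes rose and 0 fell. Of all probe sets, 3.16% were called higher, 2.70% lower and 5.86% in either direction. The 13 were the sterol enzyme genes Hmgcs1, Pmvk, Mvd, Idi1, Fdps, Fdft1, Sqle, Cyp51, Msmo1 and Hsd17b7, the regulator gene Insig1 and the fatty acid enzyme genes Fasn and Elovl6. The median log2 difference over the 27 genes was 0.67, against -0.015 over all probe sets. All KO values lay above all WT values for 21 of the 27, against 15.9% of all probe sets. Without the block, limma called 21 higher and 1 lower, the 1 being Stard4. That fit takes littermates as independent although their values mirror each other, so it understates the spread of the differences. With the pair as a random block, limma called 7 higher, which were Pmvk, Mvd, Idi1, Msmo1, Insig1, Fasn and Elovl6.

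**Figure D1:**
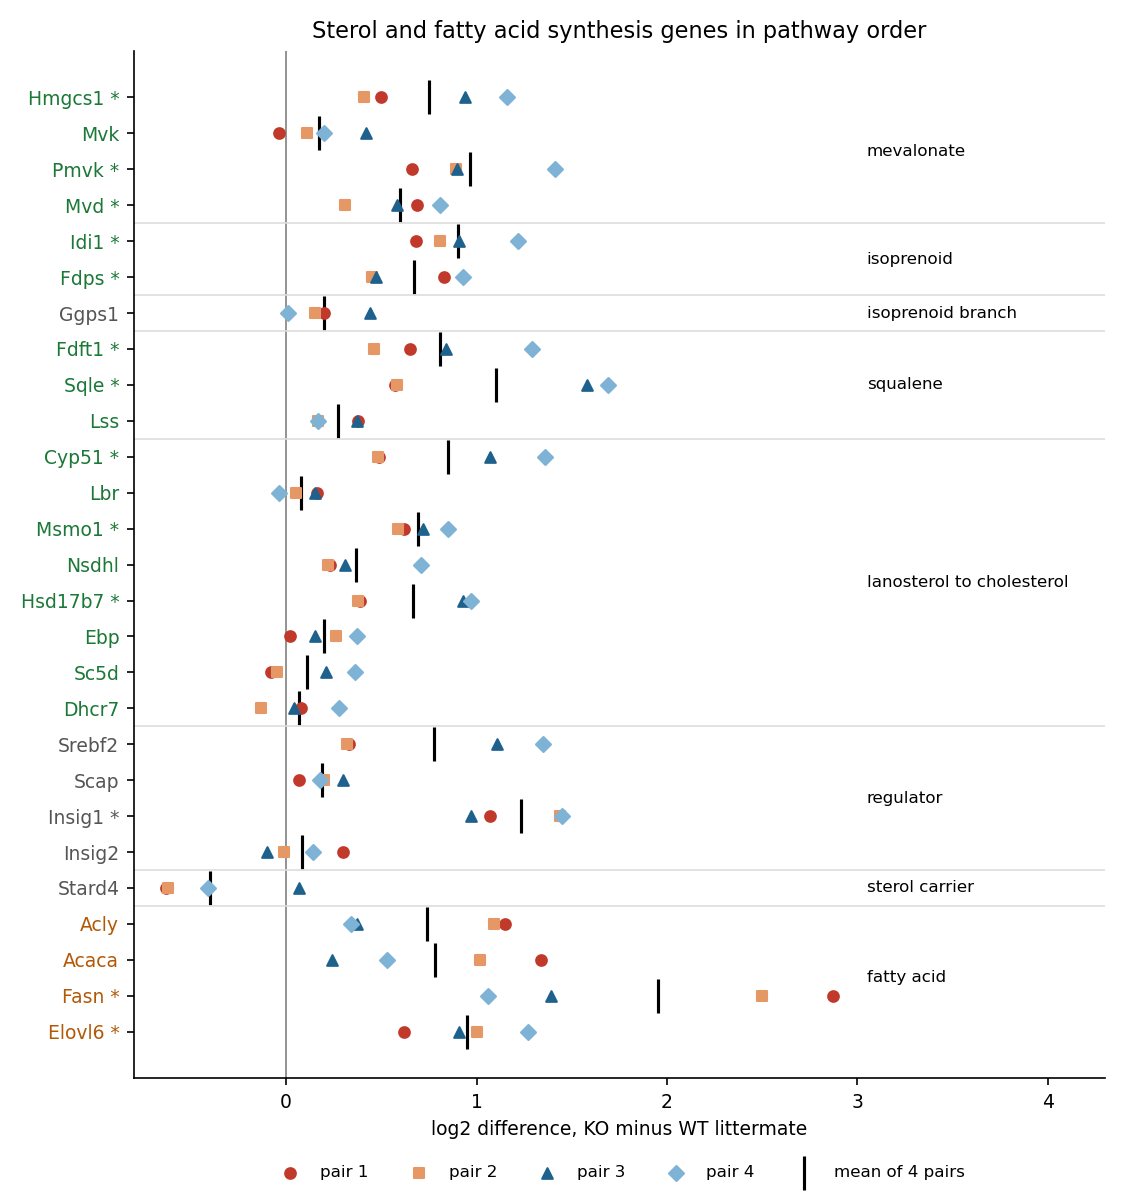
Log2 difference between KO and WT littermates (x axis) for the 27 measured genes in pathway order (y axis), with 1 symbol per sibling pair and a bar at the mean of 4 pairs. Gene names in green are sterol enzymes, in orange fatty acid enzymes and in grey the others, and an asterisk marks a limma adjusted p under 0.05. Most points lie right of 0, from -0.63 for Stard4 in pair 1 to 2.87 for Fasn in pair 1.

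The promoter windows of the 27 genes were read for the letters that SREBPs and their partners are known to bind. RefSeq windows (build GRCm38.p6, 250 bases before to 50 after the annotated start) were found for 23 of the 27 genes, and 4 genes, Fdps, Fdft1, Sqle and Stard4, had none. Both strands were searched for TCACNCCAC (a sterol regulatory element, SRE), CCAAT (the NF-Y box), GGGCGG (the GC box bound by Sp1) and the κB motif, and a gene was counted once over all its windows. CCAAT was found in 20 of the 23 genes (87.0%) and in 41.1% of all 27025 genes with a window. The GC box was found in 18 (78.3%), against 38.2% of all genes, and the κB motif in 4 (17.4%), against 9.55%. The full SRE was found in Hmgcs1 alone, against 1.44% of all genes, and with 1 mismatch allowed in 10 genes (43.5%), against 26.7%. CCAAT stood in 9 of the 10 genes with a window that rose and in 11 of the 13 that missed the threshold. These are matches of letters in a fixed window and do not show binding.

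Shown are the 250 bases before the start, 5′ to 3′, of 5 genes that rose. Insig1 had the largest change among the regulators, Hmgcs1 was the gene with a full SRE, Msmo1 had the lowest adjusted p among the sterol enzymes, and Fasn and Elovl6 are the fatty acid genes that rose. Capitals mark CCAAT or its reverse complement and, in Hmgcs1, the SRE.
Insig1 (chr5:28071162-28071411, plus strand): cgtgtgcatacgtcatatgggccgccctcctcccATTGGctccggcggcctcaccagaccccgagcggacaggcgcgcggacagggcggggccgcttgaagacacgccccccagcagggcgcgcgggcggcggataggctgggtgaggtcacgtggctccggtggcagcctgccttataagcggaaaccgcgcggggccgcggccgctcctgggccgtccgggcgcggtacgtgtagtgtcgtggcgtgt
Hmgcs1 (chr13:119690101-119690350, plus strand): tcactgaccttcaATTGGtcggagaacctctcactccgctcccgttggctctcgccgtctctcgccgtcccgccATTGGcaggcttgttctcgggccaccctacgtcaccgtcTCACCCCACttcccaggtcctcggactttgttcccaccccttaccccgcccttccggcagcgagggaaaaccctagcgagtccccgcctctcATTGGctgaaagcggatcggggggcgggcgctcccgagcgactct
Msmo1 (chr8:64733579-64733828, minus strand): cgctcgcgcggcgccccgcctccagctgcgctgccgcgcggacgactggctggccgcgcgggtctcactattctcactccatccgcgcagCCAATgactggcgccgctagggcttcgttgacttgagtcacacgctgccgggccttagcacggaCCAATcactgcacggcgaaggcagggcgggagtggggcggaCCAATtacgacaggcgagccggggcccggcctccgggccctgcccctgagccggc
Fasn (chr11:120824548-120824797, minus strand): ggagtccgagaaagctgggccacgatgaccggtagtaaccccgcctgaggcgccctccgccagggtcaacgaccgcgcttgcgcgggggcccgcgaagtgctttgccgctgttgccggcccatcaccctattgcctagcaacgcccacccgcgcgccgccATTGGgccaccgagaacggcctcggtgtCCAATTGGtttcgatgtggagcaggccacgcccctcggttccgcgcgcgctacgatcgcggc
Elovl6 (chr3:129532136-129532385, plus strand): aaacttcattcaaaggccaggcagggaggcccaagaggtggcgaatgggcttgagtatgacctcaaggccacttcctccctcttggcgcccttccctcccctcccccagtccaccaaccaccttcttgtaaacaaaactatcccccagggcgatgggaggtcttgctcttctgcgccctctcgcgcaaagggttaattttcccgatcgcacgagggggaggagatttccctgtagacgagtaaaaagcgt
Counted from the start, the SRE of Hmgcs1 began at position -137, between CCAAT matches that began at -176 and -45. Msmo1 held 3 CCAAT matches on the strand of the gene, beginning at -160, -96 and -55. Fasn held 3, beginning at -90, -62 and -59, of which the last pair overlap on opposite strands. Insig1 held 1 CCAAT match and 3 GC boxes, and Elovl6 none of the 4 motifs.

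**Figure D2:**
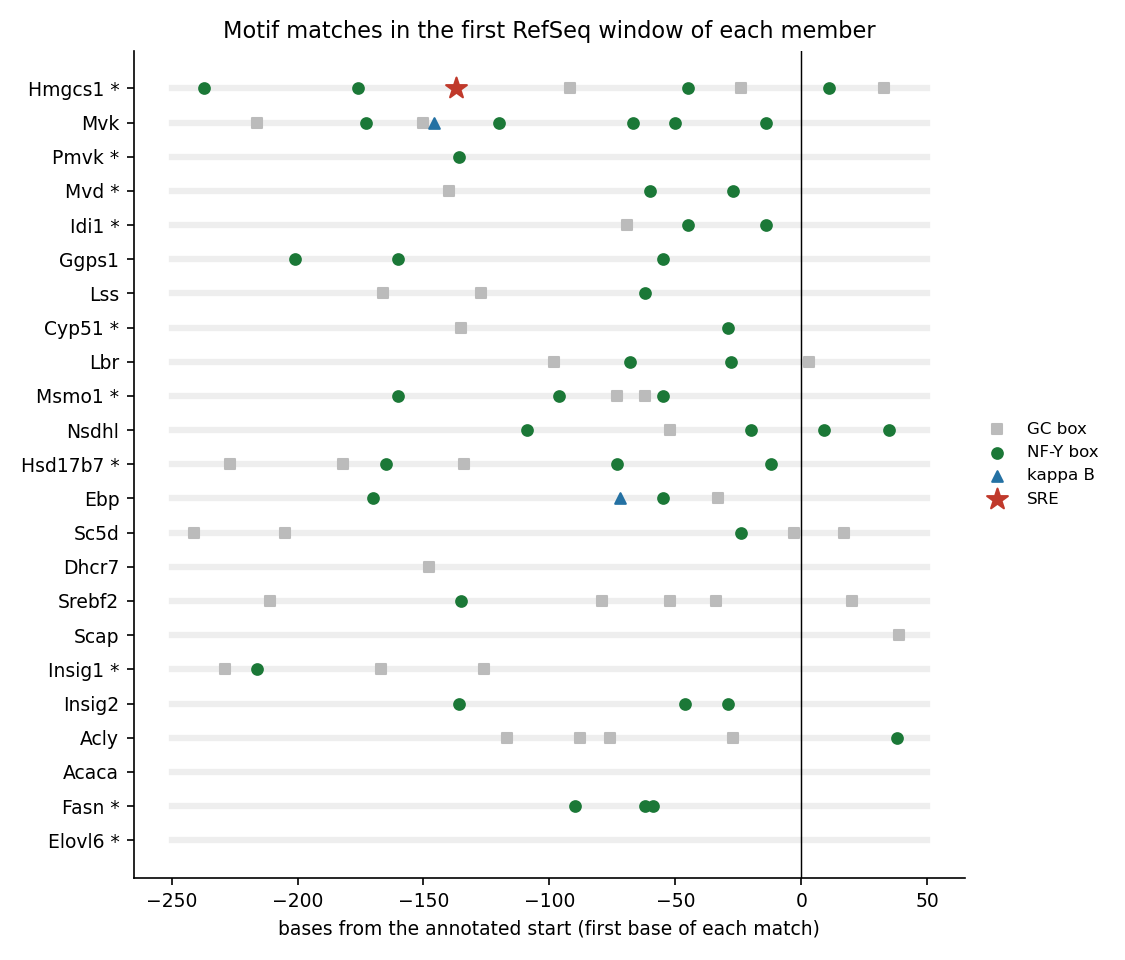
Positions of motif matches (x axis, bases from the annotated start) in the first RefSeq window of each of the 23 genes with a window (y axis, pathway order), where grey bars are the windows and symbols the motifs. Asterisks mark genes that rose. The NF-Y box recurs down the column of genes, in 20 of 23 when all windows are counted, and the star of the full SRE stands in Hmgcs1 alone.

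Of the 4 regulators measured 1, Insig1, rose, and the differences between the regulators were not tested. In 3 of them, Insig1, Srebf2 and Scap, every KO value lay above every WT value, against 15.9% of all probe sets. Insig1, which encodes a sterol-sensing brake on SREBP processing and is itself an SREBP target, had log2 levels of 11.14, 11.34, 11.10 and 11.40 in KO mice of pairs 1 to 4 and 10.07, 9.90, 10.13 and 9.95 in their WT littermates. Every KO value lay above every WT value. It rose by 1.23 ± 0.249 on the log2 scale (SD of the differences, n = 4 pairs), or 2.35-fold, with a limma adjusted p of 0.00516, and by 1.07, 1.44, 0.97 and 1.45 in pairs 1 to 4. An exact sign-flip test over the 4 pairs gave a two-sided p of 0.125, the smallest that 16 sign patterns allow. Insig2, whose product does the same work but whose gene is not driven by SREBPs in the same way, had levels of 8.57 to 8.89 in KO mice and 8.59 to 8.76 in WT mice. These ranges overlapped, and the difference was 0.08 ± 0.176 (adjusted p = 0.586).

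Srebf2, the gene of SREBP2, had levels of 11.24, 11.26, 11.54 and 11.70 in KO mice and 10.91, 10.94, 10.43 and 10.35 in WT mice. The groups did not overlap, but pairs 1 and 2 differed by 0.33 and 0.32 and pairs 3 and 4 by 1.11 and 1.35. With this spread the mean difference of 0.78 ± 0.532 missed the threshold (adjusted p = 0.0634). Scap, the escort of the SREBP precursors, differed by 0.19 ± 0.0943 (adjusted p = 0.161), with levels of 8.18 to 8.28 in KO mice and 7.98 to 8.11 in WT mice. After centring each array on housekeeping genes Scap differed by 0.032 (adjusted p = 0.771).

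**Figure D3:**
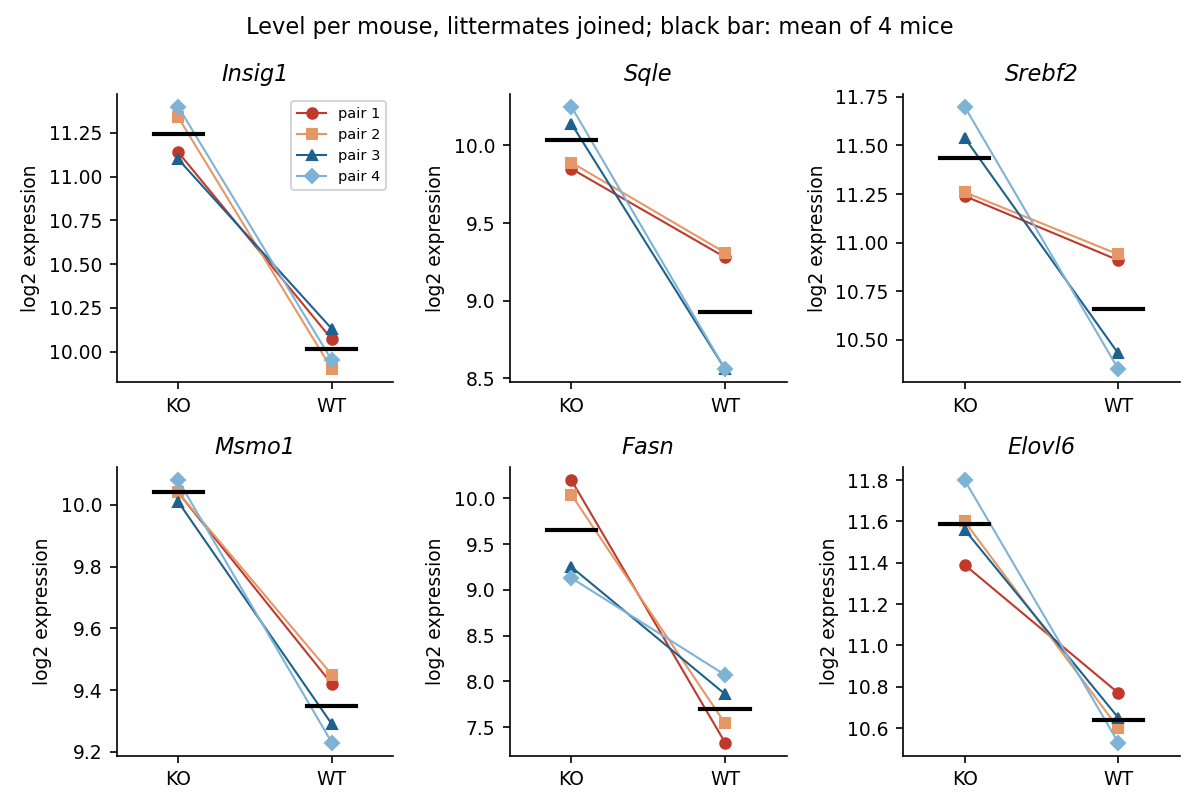
Log2 expression (y axis) of 6 genes in each KO mouse (left) and WT mouse (right), with lines joining littermates and black bars at the mean of 4 mice. The vertical axes differ between panels and do not start at 0. Insig1 and Msmo1 have nearly parallel lines, whereas Sqle and Srebf2 are steeper in pairs 3 and 4 and Fasn in pairs 1 and 2.

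At the start of the sterol pathway, 3 of the 4 mevalonate enzymes measured rose. Hmgcs1, the cytosolic synthase that makes HMG-CoA, had levels of 12.52, 12.51, 12.61 and 12.75 in KO mice and 12.02, 12.10, 11.67 and 11.59 in WT mice. KO values lay above WT values throughout, and the rise was 0.75 ± 0.357 (adjusted p = 0.0337). Pmvk, the phosphomevalonate kinase gene, had levels of 8.94, 9.05, 8.98 and 9.24 in KO mice and 8.28, 8.16, 8.08 and 7.83 in WT mice. It rose by 0.97 ± 0.317 (1.95-fold, adjusted p = 0.0161), with no overlap. Mvd, the mevalonate diphosphate decarboxylase gene, rose by 0.60 ± 0.213 (adjusted p = 0.0262). Mvk, the mevalonate kinase gene that acts just before Pmvk, had overlapping levels of 7.46 to 7.64 in KO mice and 7.22 to 7.5 in WT mice, a difference of 0.17 ± 0.192 (adjusted p = 0.280).

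Both isoprenoid enzymes on the way to squalene rose. Idi1, which interconverts the isoprenoid building blocks, had levels of 9.68, 9.75, 9.69 and 9.87 in KO mice and 9.00, 8.94, 8.78 and 8.65 in WT mice. The groups stood well apart, with a rise of 0.91 ± 0.230 (1.87-fold, adjusted p = 0.0114). Fdps, the farnesyl diphosphate synthase gene, rose by 0.67 ± 0.246 (adjusted p = 0.0241). Ggps1, which diverts farnesyl diphosphate to geranylgeranyl diphosphate for protein prenylation, differed by 0.20 ± 0.179 (adjusted p = 0.206), with levels of 8.30 to 8.50 in KO mice and 8.06 to 8.29 in WT mice.

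Of the 3 enzymes that make and close squalene, 2 rose. Sqle, the squalene monooxygenase gene and a rate-controlling step, had levels of 9.85, 9.89, 10.14 and 10.25 in KO mice and 9.28, 9.31, 8.56 and 8.56 in WT mice. It rose by 1.11 ± 0.614 (2.15-fold, adjusted p = 0.0398), the largest mean among the sterol enzymes measured, and by 0.57, 0.58, 1.58 and 1.69 in pairs 1 to 4. Fdft1, the squalene synthase gene, rose by 0.81 ± 0.356 (adjusted p = 0.0279). Lss, which folds the squalene epoxide into lanosterol, had levels of 8.99 to 9.17 in KO mice and 8.70 to 8.90 in WT mice. Its difference of 0.27 ± 0.118 had 1 direction in 4 of 4 pairs but missed the threshold (adjusted p = 0.0852).

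From lanosterol to cholesterol, 3 of 8 genes rose, and the median difference of this stretch was 0.28, against 0.68, 0.79 and 0.81 for the mevalonate, isoprenoid and squalene stages. In pathway order the 3 that rose come before Ebp, Sc5d and Dhcr7. Lbr and Nsdhl also come before these and missed the threshold, Lbr with a difference of 0.08. Cyp51, the lanosterol demethylase gene, rose by 0.85 ± 0.438 (adjusted p = 0.0366). Msmo1, which oxidizes the methyl groups at C-4 of the sterol ring, had levels of 10.04, 10.04, 10.01 and 10.08 in KO mice and 9.42, 9.45, 9.29 and 9.23 in WT mice. Its rise of 0.70 ± 0.117 (adjusted p = 0.0108) had the smallest SD among the 13 genes that rose. Hsd17b7, a ketoreductase of the same demethylation, rose by 0.67 ± 0.327 (adjusted p = 0.0375), while Nsdhl, the dehydrogenase between them, differed by 0.37 ± 0.232 (adjusted p = 0.0822).

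The enzymes that finish the molecule differed less. Ebp, the sterol isomerase gene, differed by 0.20 ± 0.150, Sc5d, a desaturase gene, by 0.11 ± 0.212, and Dhcr7, the reductase that acts near the end, by 0.07 ± 0.168 (adjusted p = 0.180, 0.502 and 0.654). Lbr, a sterol reductase that also anchors heterochromatin at the nuclear envelope, acts earlier, just after Cyp51, and differed by 0.08 ± 0.0942 (adjusted p = 0.518). For Sc5d, Dhcr7 and Lbr the KO and WT ranges overlapped, and all 3 were lower in KO mice after centring each array on housekeeping genes (-0.0453, -0.0878 and -0.0753). Ebp differed by 0.0447 in that setting (adjusted p = 0.721). Nsdhl and Ebp are on chromosome X.

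Stard4, a carrier that moves cholesterol between membranes and is an SREBP2 target, was the 1 gene of the 27 with a negative mean. Its levels were 9.92, 9.93, 10.16 and 9.90 in KO mice and 10.55, 10.55, 10.09 and 10.31 in WT mice. The groups overlapped through pair 3, where the KO mouse was 0.07 above its littermate. The mean difference of -0.40 ± 0.328 missed the threshold (adjusted p = 0.111).

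Among the fatty acid enzymes, Fasn, the fatty acid synthase gene, had levels of 10.20, 10.04, 9.25 and 9.13 in KO mice and 7.33, 7.54, 7.86 and 8.07 in WT mice. The groups stood apart, with the widest gap in pairs 1 and 2. It rose by 1.96 ± 0.867 (3.88-fold, adjusted p = 0.0227), the largest mean among the 27 genes. Acly, which makes cytosolic acetyl-CoA from citrate and so feeds both pathways, had levels of 10.07, 10.04, 9.55 and 9.54 in KO mice and 8.92, 8.95, 9.18 and 9.20 in WT mice. Acaca, the acetyl-CoA carboxylase gene that commits carbon to fatty acids, had levels of 8.63, 8.49, 7.97 and 8.10 in KO mice and 7.29, 7.47, 7.73 and 7.57 in WT mice. Neither gene's groups overlapped, but the differences of 0.74 ± 0.443 and 0.78 ± 0.492 missed the threshold (adjusted p = 0.0512 and 0.0548). Both passed without the block, after centring on housekeeping or epithelial genes, with the acinar mean as a covariate and with trend and robust variance. Both missed it with a random block (adjusted p = 0.0907 and 0.0849), with sex (0.0994 and 0.1001) or RNA integrity (0.113 and 0.118) as a covariate, and without pairs 1 and 2, where the differences were 0.36 and 0.39. Elovl6, which lengthens palmitate to stearate, had levels of 11.39, 11.60, 11.56 and 11.80 in KO mice and 10.77, 10.60, 10.65 and 10.53 in WT mice. It rose by 0.95 ± 0.268 (1.93-fold, adjusted p = 0.0129).

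The sterol and fatty acid arms both had positive median differences in all 4 pairs. The medians were larger in pairs 3 and 4 for the sterol enzymes and in pairs 1 and 2 for the fatty acid enzymes. The median difference of the 17 sterol enzymes was 0.49, 0.38, 0.58 and 0.85 in pairs 1 to 4, and that of the 4 fatty acid enzymes was 1.25, 1.06, 0.64 and 0.80. The sterol minus fatty acid difference of these medians was -0.76, -0.68, -0.06 and 0.06, and -0.20 over the means of all pairs. For 11 of the 17 sterol enzymes both pairs 3 and 4 had a larger difference than both pairs 1 and 2, against 22.5% of all probe sets, and for 0 the reverse held. For Fasn, Acly and Acaca the reverse held, as in 21.3% of all probe sets, while Elovl6 was mixed. This order of the pairs was noticed in the data, and no test was made of it. Over all probe sets the within-pair differences correlated at 0.68 between pairs 1 and 2 and at 0.67 between pairs 3 and 4. Between the former and the latter they correlated at 0.35 to 0.42, so the split was not particular to these genes. By label, littermates were of the same sex in pairs 1 and 2 and of unlike sex in pairs 3 and 4. Insig1 followed neither order of the pairs, with means of 1.26 in pairs 1 and 2 and 1.21 in pairs 3 and 4. The same held for the sterol enzymes Mvd, Fdps, Lss, Lbr, Ebp and Dhcr7 and for Ggps1, Scap and Insig2. Means in pairs 1 and 2 and in pairs 3 and 4 were 0.64 and 0.70 for Fdps and 0.275 and 0.27 for Lss.

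**Figure D4:**
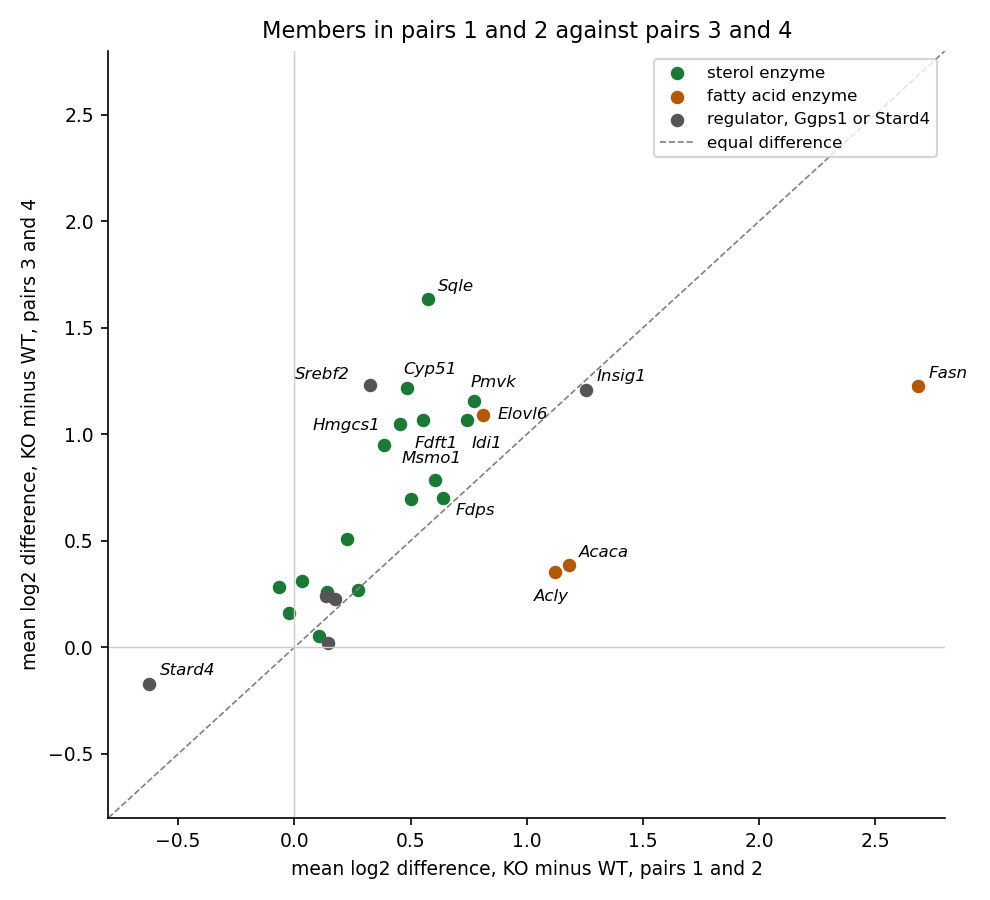
Mean log2 difference between KO and WT littermates in pairs 1 and 2 (x axis) against pairs 3 and 4 (y axis), with 1 point per gene coloured by role and a dashed line of equal difference. Sqle, Srebf2, Cyp51 and Hmgcs1 lie above the line, whereas Fasn (2.69 and 1.23), Acaca and Acly lie below it.

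Markers of other tissues moved with the same split of the pairs. Of 14 adipose genes 12 were measured and 1, Pparg, was called higher, and their medians differed by 1.61, 1.69, 0.18 and 0.01 in pairs 1 to 4. Their mean level was 7.55 to 8.85 in KO mice and 6.55 to 7.67 in WT mice. The fat cell hormone gene Adipoq, chosen after its values were seen, had levels of 9.70, 9.62, 7.32 and 6.97 in KO mice and 4.6, 4.78, 6.47 and 6.76 in WT mice.  With the adipose mean as a covariate beside the pair, Fasn rose by 1.22 (adjusted p = 0.00962), Acly differed by 0.36 (adjusted p = 0.0867) and Acaca by 0.39 (adjusted p = 0.159). In that fit Sqle rose by 1.63 (adjusted p = 0.00256) and Srebf2 by 1.23 (adjusted p = 0.00673). The adipose medians differed mainly in pairs 1 and 2, and these values lie near the means of pairs 3 and 4 alone. Those means were 1.225 for Fasn, 0.355 for Acly, 0.385 for Acaca, 1.635 for Sqle and 1.23 for Srebf2. The fit cannot separate adipose content from the split of the pairs.

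Of 20 pancreatic acinar genes 16 were measured and 1, Clps, was called lower, and their medians differed by -0.48, -0.04, -3.82 and -3.43 in pairs 1 to 4. Clps itself did not follow this split, with differences of -2.57, -2.40, -2.25 and -3.50. The mean level of the 16 genes was 6.29 to 7.88 in KO mice and 7.90 to 10.2 in WT mice. With the acinar mean as a covariate the median change of the sterol enzymes was 0.41, and 1 of them, Msmo1, passed the test (0.59, adjusted p = 0.0476). Sqle then differed by 0.49 (adjusted p = 0.0799) and Srebf2 by 0.26 (adjusted p = 0.268), while Insig1 rose by 1.29 (adjusted p = 0.0250). Fasn, Acly and Acaca rose in the same fit, by 2.78, 1.18 and 1.23 (adjusted p = 0.00575, 0.0106 and 0.0229). The acinar medians differed mainly in pairs 3 and 4, and these values lie near the means of pairs 1 and 2 alone. Those means were 0.575 for Sqle, 0.325 for Srebf2, 2.685 for Fasn, 1.12 for Acly and 1.18 for Acaca. The fit cannot separate acinar content from the split of the pairs. The epithelial marker medians differed by 0.05, -0.07, -0.17 and -0.09 in pairs 1 to 4 and crypt and proliferation genes by 0.31, 0.27, 0.41 and -0.01. Of these 11 genes 3, Mki67, Top2a and Rrm2, were called higher. In all 4 pairs 5 of the 11 were higher and 2 lower, against 16.5% and 17.9% of all probe sets. The 2 were the stem cell genes Lgr5 (-0.23) and Ascl2 (-0.27), chosen after their values were seen. Both missed the threshold (adjusted p = 0.155 and 0.122), and Ascl2 lay below the background level. The part of these markers in the results was not tested. By limma, smooth muscle markers had 0 of 10 called, and 0 at an unadjusted p under 0.05, with Cnn1 and Tagln differing most. Their medians differed by 0.19, 0.02, -0.45 and -0.62 in pairs 1 to 4, and those of the immune markers by 0.22, 0, -0.13 and -0.44, so both were lower in pairs 3 and 4 than in pairs 1 and 2. The counts of called markers stand beside 3.16% of all probe sets called higher and 2.70% lower. Of 12 epithelial markers 2 were called higher (Elf3 and Cdx1), of 6 duodenal markers 1 higher (Slc40a1), of 11 immune markers 1 higher (Cd4) and of 4 ileal markers 1 higher (Fabp6). Of 13 enterocyte markers 2 were called lower (Lct and Treh), and of 8 liver markers 1 was called higher (Tat) and 1 lower (Serpina1a). Of 9 housekeeping genes 1 was called higher (Gusb), and their median was 0.19. All KO values lay above all WT values for 7 of these 9, against 15.9% of all probe sets. In tissue RNA, more cells of a type and more RNA per cell cannot be told apart.

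**Figure D5:**
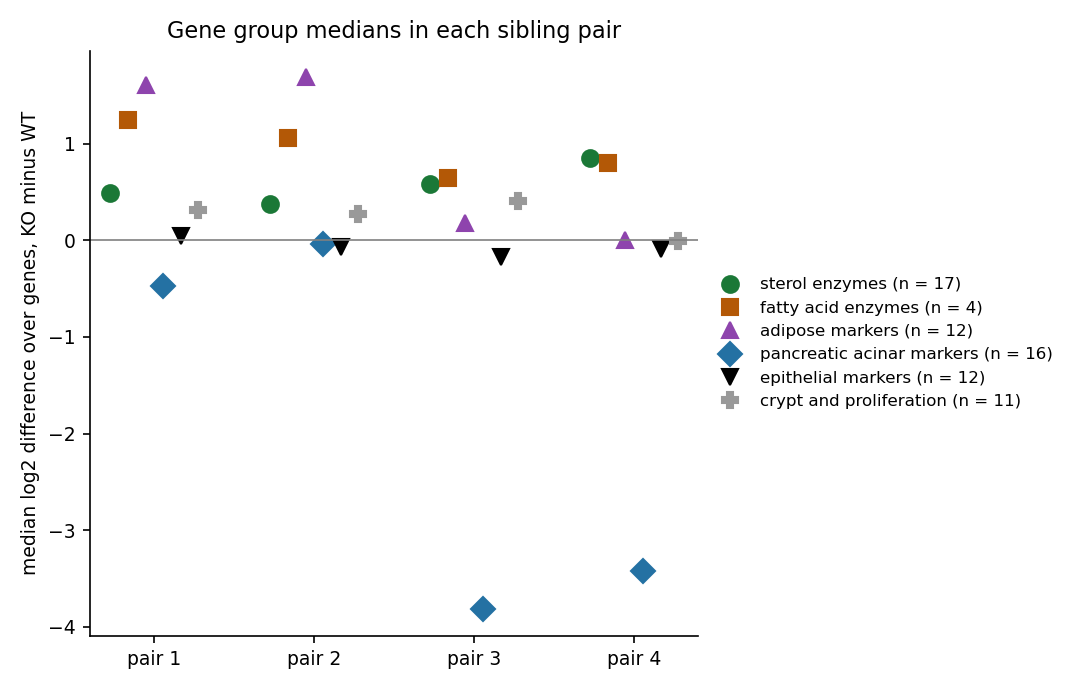
Median log2 difference between KO and WT littermates over the genes of each group (y axis) in each sibling pair (x axis), offset sideways for legibility. Adipose markers are high in pairs 1 and 2, as are the fatty acid enzymes, acinar markers lie at -3.82 and -3.43 in pairs 3 and 4, and epithelial markers stay between -0.17 and 0.05.

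The call of single genes depended on the number of pairs. Without pair 1, 2, 3 or 4 the limma fit called 5, 2, 8 and 6 of the 27 genes higher. Over the whole table the probe sets called higher then numbered 136, 89, 219 and 143, against 702 with all pairs. Insig1 (adjusted p from 0.00984 to 0.0281) and Msmo1 (0.0345 to 0.0476) were the 2 genes that passed in each of these 4 fits, while 6 of the 10 sterol enzymes called with all pairs passed in none. These were Hmgcs1 (0.0728 to 0.0908), Mvd (0.0531 to 0.0906), Fdft1 (0.0603 to 0.0753), Sqle (0.0658 to 0.103), Cyp51 (0.0698 to 0.0980) and Hsd17b7 (0.0719 to 0.105). Fdps passed in 1 of the 4 fits. Over 18 other settings, Insig1 and Msmo1 each lost the call in 2, those with 2 pairs left, and the 6 enzymes in 9 to 11. Idi1, Pmvk and Elovl6 each lost their call without pair 2 (adjusted p = 0.0505, 0.0657 and 0.0626), and also with the acinar mean as a covariate (0.73, 0.77 and 0.81, adjusted p = 0.0509, 0.0739 and 0.0614). Fasn lost its call without pair 1 (1.65, adjusted p = 0.0605) or pair 2 (1.77, adjusted p = 0.0892), with sex (1.96, adjusted p = 0.0534) or RNA integrity (1.90, adjusted p = 0.0631) as a covariate, and with trend and robust variance (adjusted p = 0.0624).

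Genes around the pathway moved in both directions, where 3.16% of all probe sets were called higher and 2.70% lower. Of 5 other sterol synthesis genes measured 0 rose and 1, Ebpl, a relative of Ebp, fell (-0.59 ± 0.245, adjusted p = 0.0333). Of 13 genes of SREBP processing and turnover 0 rose and 1 fell, Erlin1, which encodes part of the complex that guides sterol-driven protein degradation (-0.84 ± 0.368, adjusted p = 0.0274). Of 11 other SREBP2 targets 2 rose, the desaturase gene Fads2 (0.50 ± 0.0520, adjusted p = 0.0189) and the acetoacetyl-CoA synthetase gene Aacs (0.44 ± 0.0776, adjusted p = 0.0261). Another 2 fell, Sec14l2 (-1.03 ± 0.434, adjusted p = 0.0235), whose product binds lipids and squalene, and the sterol importer gene Npc1l1. The medians of these 3 lists were 0.19, 0.045 and 0.12.

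Against 3.16% of all probe sets called higher and 2.70% lower, 3 of 20 other fatty acid synthesis genes measured rose and 0 fell, with a median of 0.26. They were the malic enzyme gene Me1 (1.08 ± 0.645, adjusted p = 0.0460), which supplies NADPH, Mlxipl, the gene of the sugar-responsive factor ChREBP (0.52 ± 0.211, adjusted p = 0.0353), and the enoyl reductase gene Tecr (0.48 ± 0.169, adjusted p = 0.0336). Me1 differed by 1.65, 1.62, 0.56 and 0.48 in pairs 1 to 4. Thrsp, a lipogenic gene chosen after its values were seen, differed by 3.59, 3.35, 0.49 and 0.24 (adjusted p = 0.107). Scd1, the stearoyl-CoA desaturase gene, chosen after its values were seen, had levels of 11.06, 10.99, 8.91 and 8.56 in KO mice and 7.07, 7.28, 8.62 and 8.85 in WT mice. Its KO and WT values lay far apart in pairs 1 and 2 and close together in pairs 3 and 4. The adipose marker Adipoq differed by 5.10, 4.84, 0.85 and 0.21 in pairs 1 to 4, and the part of this in the values of Me1, Thrsp and Scd1 was not tested. For Scd1 the mean difference of 1.93 ± 2.24 missed the threshold (adjusted p = 0.162). Among 7 genes tied to the oxysterol receptor LXR 0 rose and 2 fell, the sterol exporter genes Abcg5 and Abcg8, with a median of -0.43. Of 8 genes that use isoprenoids, Nus1 (0.51 ± 0.113, adjusted p = 0.0218), needed for dolichol synthesis, and Coq2 (0.42 ± 0.153, adjusted p = 0.0421), for ubiquinone synthesis, rose. The farnesyltransferase subunit gene Fntb fell (-0.44 ± 0.130, adjusted p = 0.0336), and the list's median was 0.11.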

How the data were processed

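RNA of 4 KO and 4 WT mice was hybridised to Clariom S arrays. The authors deposited log2 expression values per probe set, and per the submitters' processing notes RMA and Transcriptome Analysis Console 4.0 were used, with further settings not given in the sources used here. No source records why pair means are nearly equal. Probe sets were named through the platform annotation (19572 with 1 symbol, 0 with several, 2634 unnamed). Tests used limma 3.58.1 in R 4.3.3 with genotype and the sibling pair as a block, p-values adjusted by Benjamini-Hochberg across the 22206 probe sets and called at 0.05. This left 3 residual degrees of freedom, and the number of arrays limits the precision. The fit takes the 4 within-pair differences as independent. Over all probe sets these correlated more between pairs 1 and 2 (0.68) and between pairs 3 and 4 (0.67) than across them (0.35 to 0.42). The effect of this on the p-values was not tested. The labels name the pairs as siblings, and the deviations of littermates, each from its genotype's mean, had correlations of -0.913 to -0.870. The fit was tested on simulated data with independent pair differences, so the simulation does not cover their correlation. Values after ± are SDs of the 4 within-pair differences. All 27 genes lay above the background level of 5.64, below which 95 percent of the 1091 probe sets for olfactory receptors lie. The genes, lists and tests were chosen with earlier results of these data known. Named are all 27 genes, up to 4 called genes of each list, the check genes, and those marked as chosen after their values were seen. Other settings were a fit with no block or a random block, pairs left out, sex, RNA integrity, acinar or adipose means as covariates, a filter on dim probe sets, quantile normalization, centring, another variance model and a threshold of 0.1. Promoter letters are from RefSeq.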

Additional observations from a re-analysis of the deposited data

Results flagged for a closer look

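Of 81 groups of 4 values examined (KO levels, WT levels and within-pair differences of the 27 genes), 1 held a value far from the others, where chance flags about 1 in 20 groups. The Stard4 level of the KO mouse of pair 3 was 10.16, with the next at 9.93 and the lowest at 9.90. Pair 3 was also the pair in which Nfkbia differed least (-1.29).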

How the results depend on the processing

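With all 4 pairs, 702 probe sets were called higher and 599 lower, a share of 54.0% higher, which became 9.62% after centring on housekeeping genes, a setting that moved the median of all probe sets by -0.155. Leaving out 1 pair gave 89 to 219 higher and 56 to 240 lower probe sets, 2 to 8 of the 27 genes higher, 1 to 4 of the sterol enzymes and 0 to 3 of the fatty acid enzymes. With no replicate block, limma called 3622 higher and 4026 lower, 21 of the 27 genes higher and 1 lower, and 4 fatty acid enzymes, with 13 sterol enzymes. That fit takes mirrored littermate values as independent and so understates the spread of the differences. A random block gave 982 lower probe sets, 7 of the 27 genes and 4 sterol enzymes higher. Without pairs 1 and 2, limma called 1 probe set higher, 25 lower and 0 of the 27 genes, so also 0 sterol and 0 fatty acid enzymes. In this setting the sterol median was 0.70, the fatty acid median 0.7375 and their difference -0.0375. At an unadjusted p under 0.05, limma then had 18 of the 27 genes and 2019 of all 22206 probe sets higher. Without pairs 3 and 4 it called 0 probe sets higher (2540 at an unadjusted p under 0.05), 0 lower (2738) and 0 of the 27 genes (16 higher). The sterol median was then 0.455, the fatty acid median 1.15 and their difference -0.695. Sex as a covariate gave 231 higher and 233 lower, with 6 genes, 4 sterol enzymes and 1 fatty acid enzyme higher, and RNA integrity gave 212 and 152, with 5, 3 and 1. The acinar mean gave 419 and 264, with 5 genes, 1 sterol enzyme and 3 fatty acid enzymes higher. The medians were then 0.41 (sterol) and 1.21 (fatty acid), with a difference of -0.80. The adipose mean gave 465 higher, with 13 of the 27 genes and 9 sterol enzymes. With it the medians were 0.71 (sterol) and 0.75 (fatty acid), with a difference of -0.041. Centring on housekeeping genes gave 4915 lower, 1 of the 27 genes lower (Stard4) and 4 fatty acid enzymes higher, and centring on epithelial genes 4 as well. Trend and robust variance gave 1135 higher, and a threshold of 0.1 gave 1673 higher, 1631 lower and 4 fatty acid enzymes. The sign turned for 4 genes that missed the threshold: Lbr (-0.0753) and Insig2 (-0.0728) after centring on housekeeping genes, Sc5d without pairs 3 and 4 (-0.065), with the acinar mean (-0.0883) and centred on housekeeping genes (-0.0453), and Dhcr7 when 1 pair was left out (-0.00333 without pair 4, up to 0.133 without pair 2), without pairs 3 and 4 (-0.025), with the acinar mean (-0.0451) and centred on housekeeping genes (-0.0878). The other 23 genes kept their sign in all 18 settings. Fits with fewer pairs or more covariates have fewer residual degrees of freedom. The cause of the other changes was not tested.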
